A study of Mus musculus with 32 samples.

Results

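Tumour-associated macrophages and microglia (TAM) were compared between mouse gliomas labelled Rebound and gliomas labelled Endpoint, both from mice given BLZ945, a small-molecule inhibitor of the receptor CSF-1R. All TAM libraries of the 2 stages were used, 5 Rebound and 6 Endpoint, which make 11 of the 32 libraries of the series. Per the labels, XFM mice received an injection of DF-1:PDGFB cells into the brain at 5 to 6 weeks of age, entered the trial at a tumour volume of 20 to 40 mm3, and were dosed each day until symptoms or until 26 weeks of age. DF-1 is a chicken fibroblast line, here carrying PDGFB, a platelet-derived growth factor chain that drives the glioma. The labels call the Endpoint tumours dormant and define Rebound no further, so stage and any difference in age or in days on the drug cannot be told apart. The 5 Vehicle TAM libraries, from mice that the stage label places on vehicle although their agent label also reads BLZ945, entered the same fit and are given as levels only. Cells were released with papain and sorted as CD11b+ and Gr.1-, a gate that takes in microglia and monocyte-derived macrophages and can also admit other CD11b+ leukocytes. Each library came from a different mouse, and mice are named by their number. Because these are bulk libraries, fewer cells of a type and less RNA per cell cannot be told apart.

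CSF-1R is the receptor tyrosine kinase through which its ligands CSF-1 and IL-34 keep macrophages and microglia alive and shape their state. The study's title names a paracrine loop from IGF-1 to its receptor and PI3K in resistance to this inhibition. Interleukin-4 acts through the receptor chain IL-4RA and the factor STAT6 to drive the alternative activation programme of macrophages, whose effectors include arginase 1. MHC class II molecules display peptides to CD4+ T cells, and their transcription depends on the coactivator CIITA.

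MHC class II genes were higher in Rebound TAMs and genes of mitosis were lower. The sequences just upstream of the annotated starts of a few of these genes are shown because members of each group moved together. They are RefSeq sequences of GRCm38.p6, the 125 bases before the start, written 5′ to 3′ on the gene's strand. In the class II genes the capitals mark TGATTGG, the core of the Y box, and AACNGATG, part of the X box, the 2 conserved elements of class II promoters.
H2-Aa, chr17:34287824-34287948, minus strand: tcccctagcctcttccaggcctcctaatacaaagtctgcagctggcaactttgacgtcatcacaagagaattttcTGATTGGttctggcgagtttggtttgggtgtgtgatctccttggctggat
H2-Eb1, chr17:34305742-34305866, plus strand: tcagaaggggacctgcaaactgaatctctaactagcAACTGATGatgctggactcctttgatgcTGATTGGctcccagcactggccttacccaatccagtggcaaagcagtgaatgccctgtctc
H2-DMb1, chr17:34153066-34153190, plus strand: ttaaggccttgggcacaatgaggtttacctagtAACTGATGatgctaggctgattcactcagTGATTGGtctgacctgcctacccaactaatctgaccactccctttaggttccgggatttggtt
H2-DMb2, chr17:34145124-34145248, plus strand: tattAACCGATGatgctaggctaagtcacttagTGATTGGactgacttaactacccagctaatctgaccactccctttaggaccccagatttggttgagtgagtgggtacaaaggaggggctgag
In the mitotic genes the capitals mark CCAAT or its reverse complement ATTGG, the CCAAT box, which is also part of TGATTGG.
Hmmr, chr11:40733438-40733562, minus strand: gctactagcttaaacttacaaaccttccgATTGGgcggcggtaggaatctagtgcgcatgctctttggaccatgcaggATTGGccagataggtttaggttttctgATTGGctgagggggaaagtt
Cdc20, chr4:118437344-118437468, minus strand: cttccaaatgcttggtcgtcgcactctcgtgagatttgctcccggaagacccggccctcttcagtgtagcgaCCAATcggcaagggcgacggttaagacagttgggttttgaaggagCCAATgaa
Ccnb2, chr9:70421555-70421679, minus strand: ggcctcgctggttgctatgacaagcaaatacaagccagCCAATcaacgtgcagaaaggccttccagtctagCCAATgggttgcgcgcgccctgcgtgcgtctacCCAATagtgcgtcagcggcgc

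Over 250 upstream bases and both strands, TGATTGG was found in 6 of the 9 class II list members present in the promoter set searched. It was found in 11.3% of the 9508 tested genes in that set and in 8.38% of all its 27025 symbols. H2-Ab1, Cd74, Ciita and Cd86 were absent from the set and were not searched. AACNGATG was found in 4 of those 9 members, in 1.91% of tested genes and in 2.27% of all symbols. CCAAT was found in 23 of the 29 G2/M and mitosis list members present in the set, in 40.7% of tested genes and in 37.5% of all symbols. Ccna2, Aurkb, Kif20a, Tpx2 and Foxm1 were absent from it. A match is a run of letters and was not tested as a bound site.

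Levels below are CPM, a gene's counts as a share of its library's scaled total, with TMM scaling over the 16 TAM libraries. The 5 Rebound values of a gene are always given in the order of mice 49041, 49059, 49827, 49834 and 49849, and the 6 Endpoint values as the lowest, the median and the highest. Fold changes are log2 values of Rebound over Endpoint from edgeR's quasi-likelihood test, and a gene was called at a Benjamini-Hochberg adjusted p under 0.05 over the 13315 genes tested. Of these, 1552 (11.7%) were called higher and 785 (5.90%) lower, 17.6% in either direction, and the median log2 fold change was 0.02. In 926 genes (6.95%) all Rebound libraries lay above all Endpoint libraries, and in 648 genes (4.87%) all lay below. Upper-quartile scaling changed the split to 1276 higher and 1080 lower, so that 54.2% of calls were higher in place of 66.4%, with a shift of -0.1 in the median log2 fold change.

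**Figure D1:**
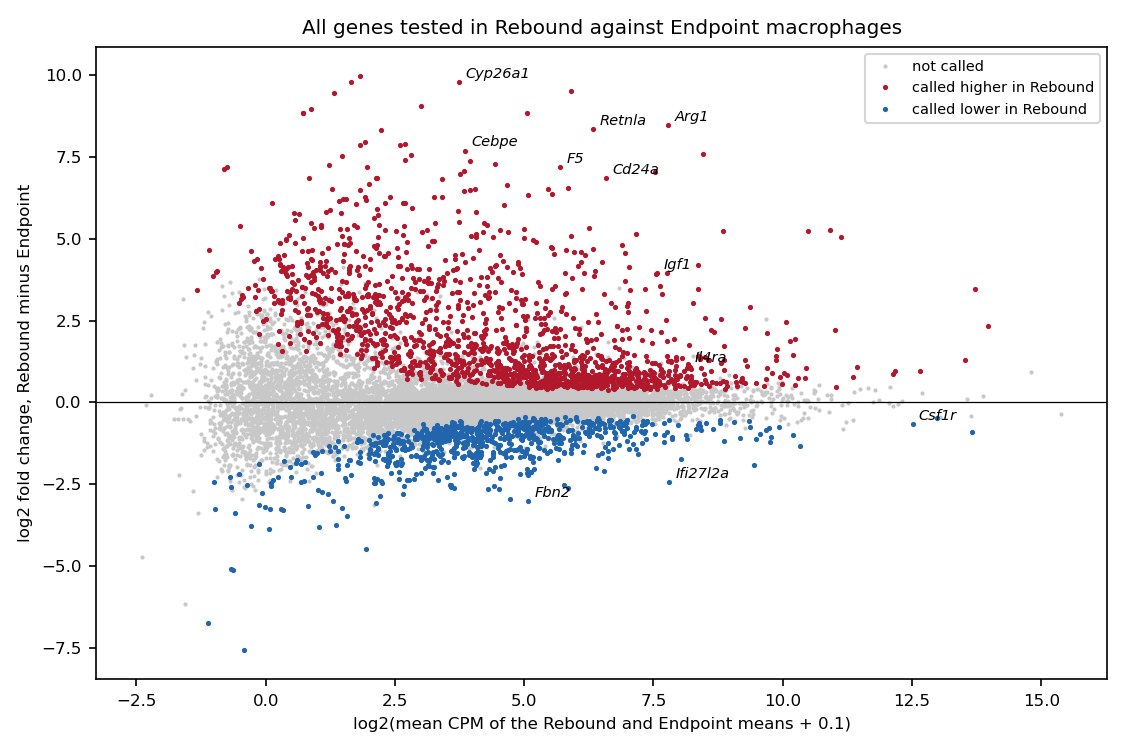
Mean of the Rebound and Endpoint mean levels (log2 of CPM plus 0.1) against the log2 fold change of Rebound over Endpoint TAMs, 1 point per gene tested, with genes called higher and lower in colour. Calls number 1552 above 0 and 785 below it, and the median of all points is 0.02.

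The libraries differed in ways that bear on every result below. Rebound libraries held 15.4 to 19.6 M counts and Endpoint libraries 9.54 to 15.8 M, and all counts in both were even, as when both reads of a pair are counted, so the fragments number 7.68 to 9.78 M and 4.77 to 7.89 M. The summed level of 15 myeloid markers was 35600 to 55100 CPM in Rebound and 38900 to 46100 CPM in Endpoint libraries. Rebound mice 49041 and 49059 stood apart: their T and NK cell markers (19 genes) summed to 179 and 294 CPM, against 27.0 to 79.5 CPM in the other Rebound mice and 15.0 to 46.1 CPM in Endpoint mice. Rebound mouse 49827 lay nearest to the Endpoint libraries on the first principal component, which held 44.3% of the variance. That mouse was also the only Rebound mouse nearly free of Xist, a transcript of female cells. Endpoint mice 49823, 49825 and 49845 were nearly free of it too. Without mice 49041 and 49059, a comparison chosen after seeing the data, 964 genes were called higher and 381 lower. Of the 2337 genes called with all mice, 1209 (51.7%) were called again.

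Igf1, which encodes the secreted growth factor IGF-1, was higher in Rebound TAMs. It lies at chr10:87858265-87937042 on the plus strand of mm10. Igf1 stood at 486, 271, 329, 355 and 343 CPM in Rebound mice, against 4.76, 7.22 and 102 CPM as lowest, median and highest in Endpoint mice. The groups did not overlap, and Endpoint mouse 49843 was far above the other 5, of which the highest was 12 CPM. The log2 fold change was 3.95 ± 0.81 (SE, n = 5 and 6, edgeR adjusted p = 0.00403). Without mouse 49843 it was 5.61. In Vehicle TAMs Igf1 lay between 12.6 and 76.2 CPM, below every Rebound library. Under a joint scaling of all 32 libraries, Igf1 averaged 427 CPM in TAMs and 4.81 CPM in PDGFRA+ cells of Rebound tumours.

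The list of 11 tested IGF ligands, receptors and binding proteins held 4 genes called higher and 2 called lower, with a median log2 fold change of 1.47. The lower ones were Igfbp4 and Insr, the insulin receptor gene (-1.08), of which 1 was left without Rebound mouse 49059 or Endpoint mouse 49823. Igfbp4, a secreted IGF-binding protein, was at 5.26, 5.51, 2.48, 9.79 and 7.22 CPM in Rebound mice, against 32.5, 48.6 and 62.7 CPM in Endpoint mice. Every Rebound library lay below every Endpoint library, and the log2 fold change was -2.94 ± 0.37 (SE, edgeR adjusted p = 6.71e-05). Irs1, the adaptor that couples insulin and IGF receptors to PI3K, was at 3.66 to 13.3 CPM in Rebound mice and at most 0.591 CPM in Endpoint mice (5.37 ± 0.93, SE, edgeR adjusted p = 0.000832). Igf2r, which binds and clears IGF-2, was at 13.3 to 32.6 CPM in Rebound mice and 1.19 to 10.7 CPM in Endpoint mice (2.68 ± 0.51, SE, edgeR adjusted p = 0.00151).

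Csf1r, the drug's target, was at 4880, 2910, 5200, 4880 and 4730 CPM in Rebound mice, against 6350, 6970 and 8230 CPM in Endpoint mice. All Rebound values lay below all Endpoint values. The log2 fold change was -0.66 ± 0.21 (SE, edgeR adjusted p = 0.0318), and the call was lost when any 1 of Rebound mouse 49059 or Endpoint mice 49823, 49830, 49831 and 49845 was left out. The adjusted p ran from 0.00488 to 0.085 over the fits with other scalings, tools, filters or 1 library less, and was 0.145 without mice 49041 and 49059. In Vehicle TAMs the level was 8110 to 17400 CPM. Its ligand gene Csf1 was at 57.8, 188, 150, 191 and 135 CPM in Rebound mice, against 16.1, 19.1 and 39.1 CPM in Endpoint mice. The groups did not overlap (2.72 ± 0.44, SE, edgeR adjusted p = 0.000662).

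Of 21 CSF-1 receptor ligands and survival cytokines tested, 7 were called higher and 2 lower, with a median log2 fold change of 0.42. The lower ones were Csf1r and Il10ra, an IL-10 receptor chain (-0.59), and neither was called without Rebound mouse 49059 or any 1 of Endpoint mice 49823, 49830, 49831 and 49845. Bcl2l1, which encodes the anti-apoptotic protein BCL-XL, was at 86.5, 370, 177, 391 and 411 CPM in Rebound mice, against 29.8, 38.5 and 64.3 CPM in Endpoint mice (2.81 ± 0.33, SE, edgeR adjusted p = 3.8e-05). Csf2rb and Csf2rb2, which encode signalling chains of the GM-CSF, IL-3 and IL-5 receptors, had log2 fold changes of 1.18 and 1.46. Both were higher in every Rebound library than in any Endpoint library.

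**Figure D2:**
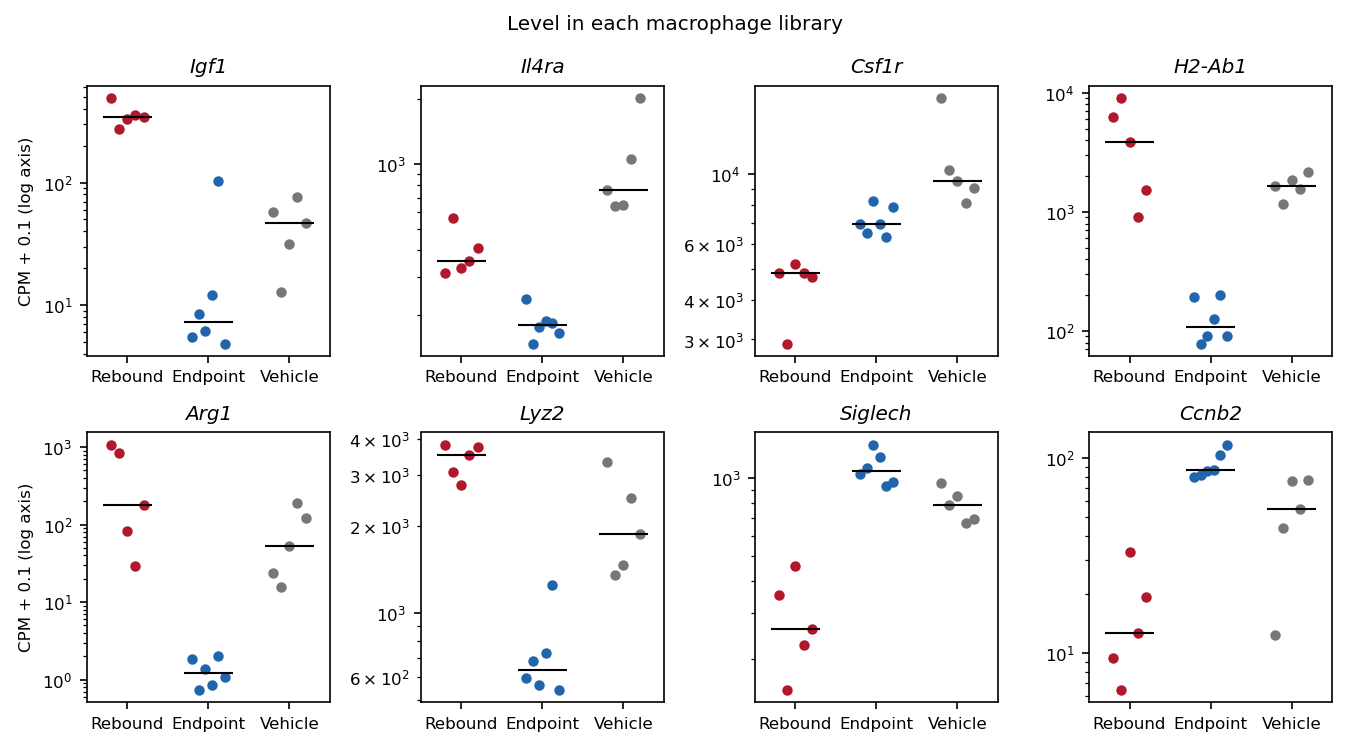
Level of 8 genes in each TAM library (CPM plus 0.1, log axis) for Rebound, Endpoint and Vehicle mice, with a bar at each group's median. Igf1, Il4ra, H2-Ab1, Arg1 and Lyz2 lie higher in all 5 Rebound than in all 6 Endpoint libraries, and Csf1r, Siglech and Ccnb2 lie lower.

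Il4ra, the signalling chain of the IL-4 and IL-13 receptors, was higher in Rebound TAMs. It was at 315, 562, 330, 356 and 408 CPM in Rebound mice, against 148, 180 and 237 CPM in Endpoint mice. The groups did not overlap, and the log2 fold change was 1.11 ± 0.26 (SE, edgeR adjusted p = 0.00628). Vehicle TAMs held 637 to 2010 CPM, above every Rebound library. Stat6, chosen here after its values were seen, was at 247, 405, 198, 254 and 295 CPM in Rebound mice, against 131, 158 and 175 CPM in Endpoint mice (0.83 ± 0.17, SE, edgeR adjusted p = 0.00259). Il13ra1, the other chain of the receptor that both cytokines share, ran the other way at 141 to 187 CPM in Rebound mice and 203 to 327 CPM in Endpoint mice (-0.62 ± 0.19, SE, edgeR adjusted p = 0.0303). That call was lost without any 1 of Rebound mice 49041, 49059 and 49834 or Endpoint mice 49825, 49830 and 49845, with an adjusted p of at most 0.0703.

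Of 24 genes of the IL-4 and STAT6 response, 14 were called higher and 1, Il13ra1, lower, with a median log2 fold change of 1.82. Tgm2, a transglutaminase induced by IL-4 in macrophages, was at 330, 920, 291, 202 and 291 CPM in Rebound mice, against 13.3, 22.6 and 54.9 CPM in Endpoint mice. No library of either group overlapped the other (3.96 ± 0.47, SE, edgeR adjusted p = 7.23e-05). Il2rg, the common gamma chain used by the IL-4 receptor, was also higher in every Rebound library (2.25 ± 0.33, SE, edgeR adjusted p = 0.000239). Cdh1, the E-cadherin gene, was at 33.4, 107, 7.01, 9.66 and 4.88 CPM in Rebound mice and at most 0.827 CPM in Endpoint mice.

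Alternative activation genes were higher as well: 13 of 22 tested were called higher and 0 lower, with a median of 2.40. Arg1, which encodes arginase 1, lies at chr10:24915221-24927484 on the minus strand of mm10. It was at 1070, 844, 83.7, 28.7 and 179 CPM in Rebound mice, against 0.631, 1.13 and 1.89 CPM in Endpoint mice. The Rebound values spread widely, with mice 49041 and 49059 highest, and all lay above every Endpoint value (8.49 ± 1.09, SE, edgeR adjusted p = 0.000217). Vehicle TAMs held 15.7 to 190 CPM. Retnla, which encodes the secreted protein FIZZ1, was at 436, 260, 11.1, 5.15 and 89.1 CPM in Rebound mice and at most 1.26 CPM in Endpoint mice. Pdcd1lg2, which encodes the PD-1 ligand PD-L2, was at 0.773 to 12.9 CPM in Rebound mice and at most 0.379 CPM in Endpoint mice (5.44 ± 0.88, SE, edgeR adjusted p = 0.000509). Mrc1, the mannose receptor CD206 and a gene chosen after its values were seen, was at 15.8 to 98.7 CPM in Rebound mice and 4.31 to 13 CPM in Endpoint mice (2.73 ± 0.54, SE, edgeR adjusted p = 0.00258). Without Rebound mice 49041 and 49059, 11 alternative activation genes and 11 IL-4 response genes were called higher.

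Il4 itself, chosen after its values were seen, was counted in 4 of the 5 Rebound libraries. It was at 12, 14.2, 0, 1.42 and 2.78 CPM in Rebound mice and at 0 in all 6 Endpoint mice. Mouse 49827 held none, so the groups met at 0. Over the summed libraries Il4 stood at 6.38 CPM at Rebound, from 218, 242, 0, 22 and 50 counts in the same order of mice. Over the Endpoint group 3 counts would give 0.0338 CPM. All counts of both groups were even, as when both reads of a pair are counted, so 3 counts are fewer than 3 fragments. No lowest fold change is therefore given. Il5 and Il13 did not exceed 0.768 CPM in any Rebound library.

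The 12 largest rises under the rule for named genes were Cyp26a1, Arg1, Retnla, Cebpe, Ccl7, Aqp9, F5, G0s2, Alox15, H2-M2, Cd24a and Rab44, with log2 fold changes of 6.66 to 9.80. Retnla, Cebpe, Ccl7 and F5 were not called by limma-voom with quality weights (limma-voom adjusted p of 0.113, 0.0519, 0.0632 and 0.068). Cyp26a1, which encodes the enzyme that clears retinoic acid, was at 24.8, 87.4, 0.55, 6.96 and 12.5 CPM in Rebound mice and at most 0.157 CPM in Endpoint mice. That Endpoint level is below 3 counts, so the size of this rise is uncertain. Alox15, a lipoxygenase of alternatively activated macrophages and eosinophils, was at 466, 1030, 21.9, 115 and 209 CPM in Rebound mice, against 0, 1.86 and 7.53 CPM in Endpoint mice. Cebpe, a transcription factor of granulocyte maturation, was at 44.4, 78.5, 1.38, 7.34 and 12.1 CPM in Rebound mice and at most 0.354 CPM in Endpoint mice. In 11 of the 12 genes (91.7%) mice 49041 and 49059 were both above the other 3 Rebound mice, which was so for 537 of all 1552 genes called higher (34.6%). Ccl7, which encodes a monocyte chemoattractant, was at 1.65, 131, 1.10, 6.06 and 12.5 CPM in Rebound mice, and its log2 fold change of 7.37 was 4.88 without mouse 49059.

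Several of these genes are known from eosinophils, a CD11b+ leukocyte, so 13 eosinophil markers were summed after the values were seen. They came to 640, 687, 153, 163 and 219 CPM in Rebound mice, 58.1 to 121 CPM in Endpoint mice and 84.6 to 200 CPM in Vehicle mice. Most of the Endpoint sum was Siglec5, and the other 12 markers came to 538, 516, 11.7, 43.7 and 114 CPM in Rebound mice and 0.314 to 5.95 CPM in Endpoint mice. Of 9 tested, 6 were called higher. Ccr3, the eotaxin receptor, was at 178, 297, 2.89, 27.3 and 61.2 CPM in Rebound mice, against 0, 1.03 and 3.12 CPM in Endpoint mice. Il5ra, the IL-5 receptor chain, was at 15.8, 25.8, 0, 3.86 and 9.44 CPM in Rebound mice and at most 0.884 CPM in Endpoint mice. Mice 49041 and 49059 were highest in both, and mouse 49827 lay within the Endpoint range in both. Neither was called by limma-voom with quality weights (limma-voom adjusted p of 0.0803 for Ccr3 and 0.14 for Il5ra). The granule genes Epx and Prg2 reached 10.2 and 26.0 CPM in Rebound mice, and at most 0.433 and 3.14 CPM in Endpoint mice. Ear11, another of the markers, was at 230, 75.1, 4.95, 0.129 and 20.2 CPM in Rebound mice and at most 0.284 CPM in Endpoint mice. Of 12 neutrophil markers 3 were called higher, Retnlg, Cxcr2 and Mmp9, and 0 lower, while 7 had negative fold changes and the median was -0.38. Their sum was 622 to 2630 CPM in Rebound mice and 349 to 988 CPM in Endpoint mice, of which Retnlg gave 769, 2200, 43.6, 170 and 340 CPM in Rebound mice and at most 7.95 CPM in Endpoint mice. A list of 12 basophil and mast cell markers summed to 0.688 to 21.2 CPM in Rebound mice and 1.12 to 2.20 CPM in Endpoint mice. The part of these cells in the rises was not tested.

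**Figure D3:**
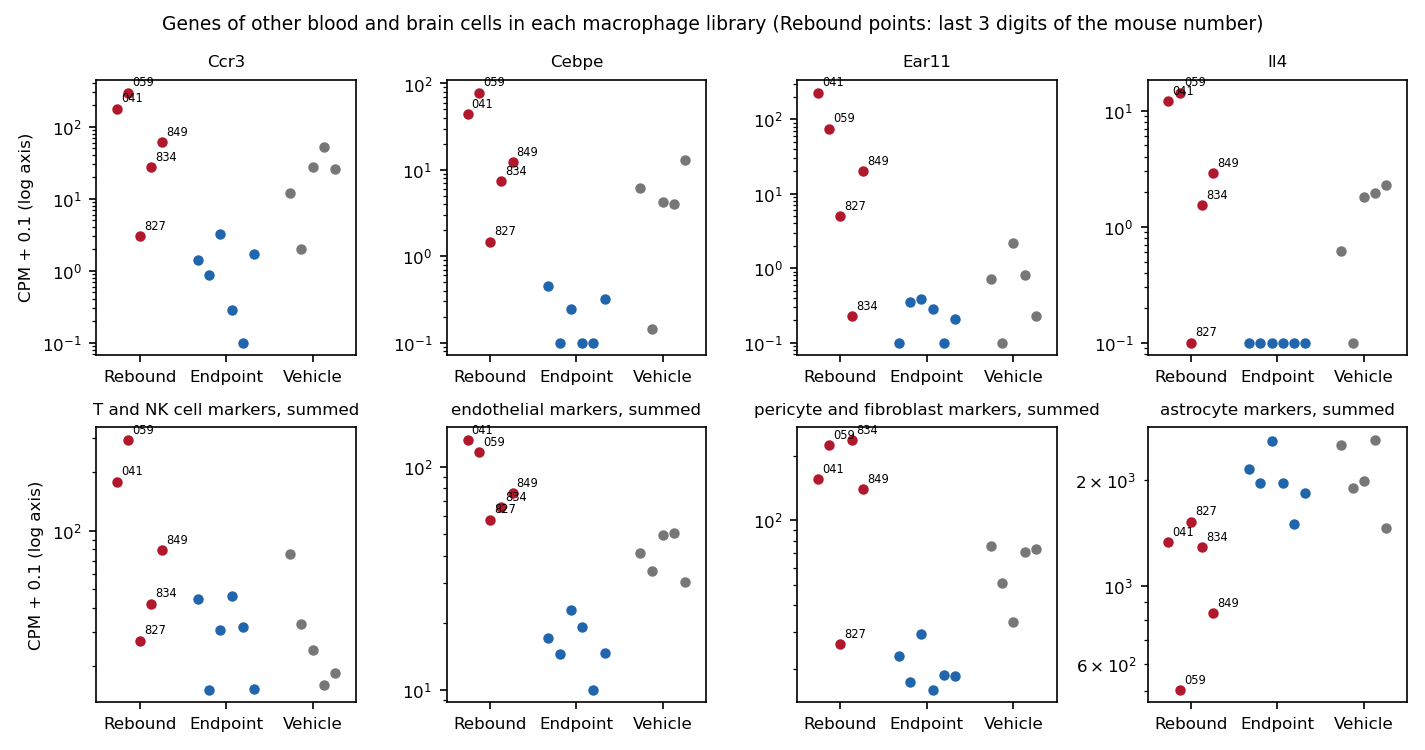
Level of Ccr3, Cebpe, Ear11 and Il4, and the summed level of T and NK cell, endothelial, pericyte and fibroblast, and astrocyte markers, in each TAM library (CPM plus 0.1, log axis). Rebound mice 49041 and 49059 lead for Ccr3, Cebpe, Ear11, Il4 and the T and NK cell markers, while astrocyte markers are at 505 to 1520 CPM at Rebound and 1500 to 2580 CPM at Endpoint. Without the leading member Slc1a3, not drawn, the astrocyte sums are 381, 274, 396, 373 and 114 CPM at Rebound and 263 to 581 CPM at Endpoint.

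MHC class II genes were higher in Rebound TAMs, 9 of 13 tested with 0 lower and a median log2 fold change of 1.76. H2-Ab1, the beta chain of I-A, lies at chr17:34257689-34269419 on the plus strand of mm10. It was at 6320, 9020, 3900, 909 and 1520 CPM in Rebound mice, against 78.2, 109 and 201 CPM in Endpoint mice. Mice 49834 and 49849 held the least among Rebound mice and still lay above every Endpoint mouse (5.06 ± 0.52, SE, edgeR adjusted p = 2.21e-05). Vehicle TAMs held 1160 to 2170 CPM. H2-Aa, the alpha chain of I-A, had a log2 fold change of 5.29 and H2-Eb1, the beta chain of I-E, one of 5.24, each without overlap. Cd74, the invariant chain that escorts class II molecules, was at 36800, 44100, 25400, 6130 and 11400 CPM in Rebound mice, against 1600, 2220 and 2780 CPM in Endpoint mice (3.48 ± 0.41, SE, edgeR adjusted p = 4.07e-05).

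A few class II genes were chosen after their values were seen. Ciita was at 170, 300, 109, 41.0 and 33.5 CPM in Rebound mice, against 0.884, 3.68 and 15.8 CPM in Endpoint mice (4.62, edgeR adjusted p = 0.000872). H2-DMb1 and H2-DMb2, beta chains of the peptide-loading molecule H2-DM, had log2 fold changes of 1.31 and 2.21, and are near-identical copies between which counting may split reads. limma-voom gave 1.46 for H2-DMb2. Without mice 49041 and 49059, 8 class II genes were called higher. Markers of other cells that carry class II moved too. Of 11 dendritic cell markers tested 5 were called higher and 1, Siglech, lower (median 2.32). The sum of 12 such markers was 310 to 733 CPM in Rebound mice and 1010 to 1440 CPM in Endpoint mice, and that of the 11 without Siglech was 227, 582, 101, 84.9 and 63.1 CPM in Rebound mice and 61.8 to 94.6 CPM in Endpoint mice. Of 6 B and plasma cell markers tested 3 were called higher and 1 lower (median 2.27). Their sum was 237 to 522 CPM in Rebound mice and 61.1 to 116 CPM in Endpoint mice, and without the leading member Cd22 it was 395, 174, 26.5, 38.3 and 114 CPM in Rebound mice and 30.3 to 63.0 CPM in Endpoint mice. Their part in the class II result was not tested.

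MHC class I genes differed less, with 7 of 18 tested called higher and 0 lower (median 0.58). H2-K1 was at 1180 to 2610 CPM in Rebound mice and 717 to 1070 CPM in Endpoint mice, and H2-D1 at 4390 to 7880 CPM in Rebound mice and 2830 to 3430 CPM in Endpoint mice. Neither gene overlapped between the groups, with log2 fold changes of 1.05 and 0.96. H2 class I genes are close copies, so their separate counts are uncertain. The number called was 2 without mice 49041 and 49059 or without mouse 49059 alone, 3 without Rebound mouse 49827 or any 1 of Endpoint mice 49823, 49825 and 49831, and 4 without Endpoint mouse 49845.

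Of 26 interferon gamma response genes 7 were called higher and 0 lower (median 1.31), which became 14 where only the Rebound and Endpoint libraries were fitted, 4 without mouse 49059 and 1 without mice 49041 and 49059. They included Socs3, an inhibitor of cytokine signalling (3.32), and Cd274, which encodes PD-L1 (2.04). Of 33 type I interferon genes 3 were called higher and 1 lower, which does not exceed the 11.7% and 5.90% of all genes tested. The lower one was Ifi27l2a, an interferon-induced gene, at 62.5, 98.0, 87.6, 37.1 and 63.8 CPM in Rebound mice, against 289, 344 and 503 CPM in Endpoint mice (-2.43). The number higher was 0 without Rebound mouse 49059, 7 without mouse 49834, 1 without mouse 49849 or any 1 of Endpoint mice 49825, 49831, 49843 and 49845, and 12 with DESeq2.

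Genes of mitosis were lower in Rebound TAMs: of 34 in the G2/M list, 30 were called lower and 0 higher, with a median log2 fold change of -1.73, where 5.90% of all genes were lower. Ccnb2, which encodes cyclin B2, was at 9.32, 6.34, 32.7, 12.6 and 19.3 CPM in Rebound mice, against 80.1, 86.4 and 117 CPM in Endpoint mice (-2.53 ± 0.44, SE, edgeR adjusted p = 0.00101). Mouse 49827 was the highest of the Rebound mice and still lay below every Endpoint mouse. Cdc20, the activator of the anaphase-promoting complex, was at 1.16 to 7.01 CPM in Rebound mice and 14.4 to 29.8 CPM in Endpoint mice (-2.63). Hmmr, a spindle-associated protein, was at 1.64 to 13.6 CPM in Rebound mice and 26.6 to 49.2 CPM in Endpoint mice (-2.64). Birc5, which encodes survivin, and Cenpa, the centromeric histone, had log2 fold changes of -2.19 and -2.13. Mki67, which encodes the proliferation marker Ki-67 and was chosen after its values were seen, was at 52.1, 22.9, 49.6, 24.7 and 28.0 CPM in Rebound mice, against 88.6, 153 and 202 CPM in Endpoint mice (-2.09). Its groups did not overlap, and Vehicle TAMs held 11.7 to 110 CPM.

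Genes of the G1/S transition and DNA replication were called less: 2 of 31 were lower and 0 higher, near the 5.90% of all genes called lower. The median was -0.57, and all 31 fold changes were negative. The 2 were Cdt1, which licenses replication origins (-1.54), and Rfc3, a subunit of the clamp loader (-0.74), and both overlapped between the groups. Neither was called without mouse 49059 or Endpoint mouse 49845, while 4 genes were called without mouse 49041 or Endpoint mouse 49830. Without Rebound mice 49041 and 49059, 26 of the G2/M genes were called lower, with a median again of -1.73.

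The 12 largest falls included Hmmr, Cdc20, Ccnb2 and Ube2c of the G2/M list, with Cdkn3, Aspm and Pttg1, which also act in the cell cycle. The largest was Fbn2, which encodes the microfibril protein fibrillin-2, at 5.04, 5.75, 8.80, 12.1 and 5.22 CPM in Rebound mice, against 39.0, 66.6 and 73.0 CPM in Endpoint mice (-3.03 ± 0.35, SE, edgeR adjusted p = 3.51e-05). In Vehicle TAMs Fbn2 was at 1.03 to 4.20 CPM, below every Endpoint library. Abcb4, a phospholipid transporter, was at 1.78 to 7.98 CPM in Rebound mice and 11.5 to 30.1 CPM in Endpoint mice (-2.51). E130306D19Rik (-2.53), Igfbp4 and Ifi27l2a, described with their lists, made up the rest.

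**Figure D4:**
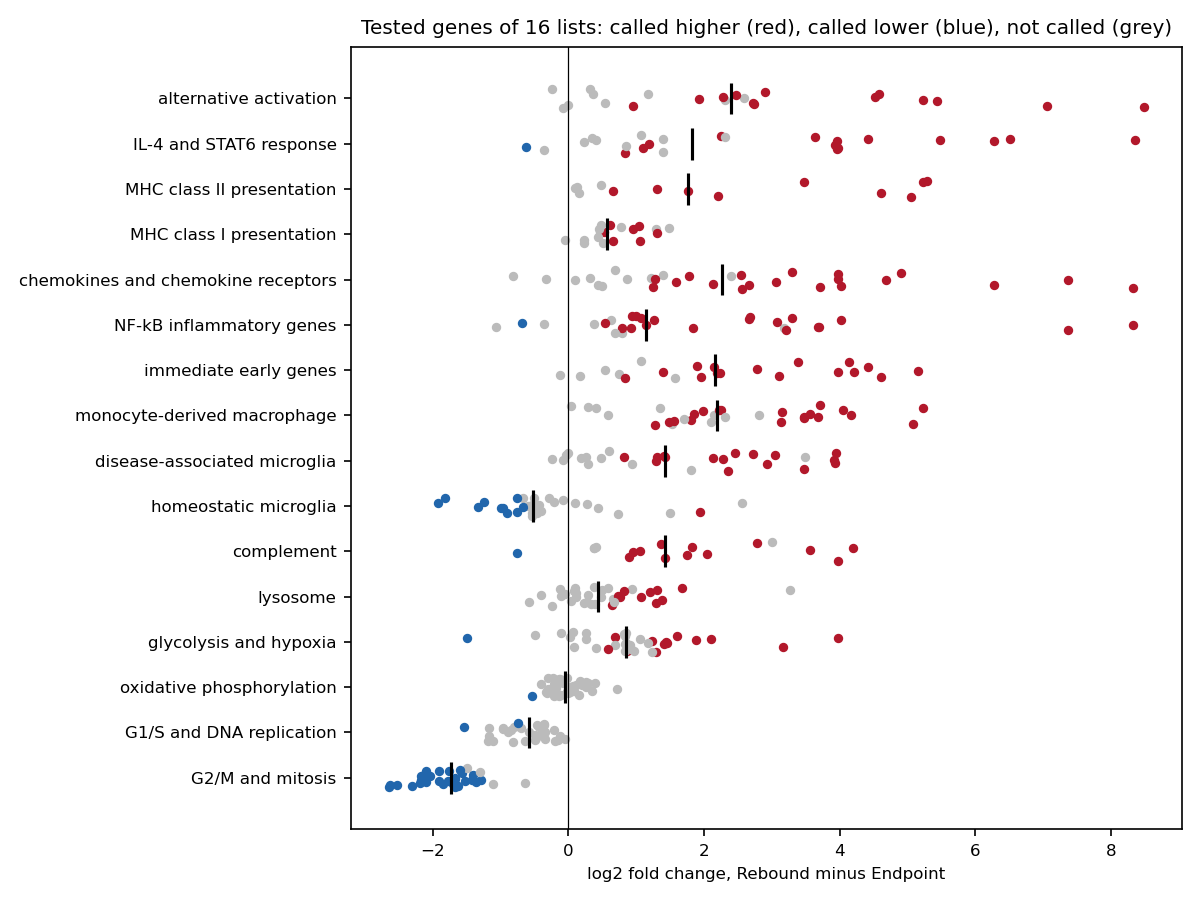
Log2 fold change of Rebound over Endpoint TAMs for every tested member of 16 gene lists, 1 point per gene, with called genes coloured and a bar at each list's median. The G2/M list lies wholly below 0 with a median of -1.73, and the alternative activation list has a median of 2.40.

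Genes of a list drawn up for monocyte-derived macrophages were higher in Rebound TAMs, 19 of 30 with 0 lower and a median of 2.19. Which cells held these transcripts was not tested. Lyz2, the lysozyme gene, was at 3820, 3080, 2780, 3530 and 3750 CPM in Rebound mice, against 541, 637 and 1250 CPM in Endpoint mice (2.23 ± 0.25, SE, edgeR adjusted p = 3.22e-05). The 5 Rebound values lay close together and above every Endpoint value. S100a6 (3.15), Crip1 (2.25) and Napsa (3.56) were likewise higher without overlap. Ccr2, the receptor that draws monocytes out of the blood, was chosen after its values were seen and was at 484, 371, 54.6, 97.0 and 134 CPM in Rebound mice, against 5.68, 13.8 and 44.5 CPM in Endpoint mice (3.71 ± 0.88, SE, edgeR adjusted p = 0.00977). Its highest values came from mice 49041 and 49059, without which its adjusted p was 0.11. Without these mice 13 genes of the list were called higher, with a median of 1.44.

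Homeostatic microglia genes went the other way in part: of 30 tested, 10 were called lower and 1, Rtn4rl1, higher, with a median of -0.52. The number higher was 3 without mouse 49041 or Endpoint mouse 49843. Siglech, a lectin of microglia and plasmacytoid dendritic cells, lies at chr7:55768178-55778925 on the plus strand of mm10. It was at 353, 151, 458, 225 and 261 CPM in Rebound mice, against 936, 1070 and 1350 CPM in Endpoint mice (-1.92 ± 0.23, SE, edgeR adjusted p = 4.07e-05). All Rebound values lay below all Endpoint values. Selplg, a selectin ligand, was at 591 to 805 CPM in Rebound mice and 1660 to 2000 CPM in Endpoint mice (-1.32), and Slc2a5, a fructose transporter, had a log2 fold change of -1.24. The defining genes P2ry12 and Tmem119 were not called. P2ry12 was at 696, 269, 1300, 943 and 1150 CPM in Rebound mice, against 989, 1170 and 1450 CPM in Endpoint mice (-0.46 ± 0.29, SE, edgeR adjusted p = 0.305). Without mice 49041 and 49059, of which the second was lowest for both P2ry12 and Siglech, 5 homeostatic genes were called lower and 4 higher.

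Disease-associated microglia genes were higher, 16 of 28 with 0 lower and a median of 1.42, and here leaving out mice 49041 and 49059 gave 17 calls and a median of 1.55. Clec7a, the beta-glucan receptor Dectin-1, was at 928, 1420, 959, 1170 and 668 CPM in Rebound mice, against 111, 195 and 369 CPM in Endpoint mice (2.29 ± 0.38, SE, edgeR adjusted p = 0.000685). Apoe, the lipid carrier, was at 11600, 12200, 33900, 39000 and 38400 CPM in Rebound mice, against 2960, 4760 and 10100 CPM in Endpoint mice (2.35 ± 0.50, SE, edgeR adjusted p = 0.0041). For Apoe it was mice 49827, 49834 and 49849 that stood highest. Ctsb, the lysosomal protease cathepsin B, was at 12000 to 21300 CPM in Rebound mice and 5110 to 10500 CPM in Endpoint mice (1.31), with the same 3 mice highest. Lgals3, which encodes galectin-3, had a log2 fold change of 3.92.

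**Figure D5:**
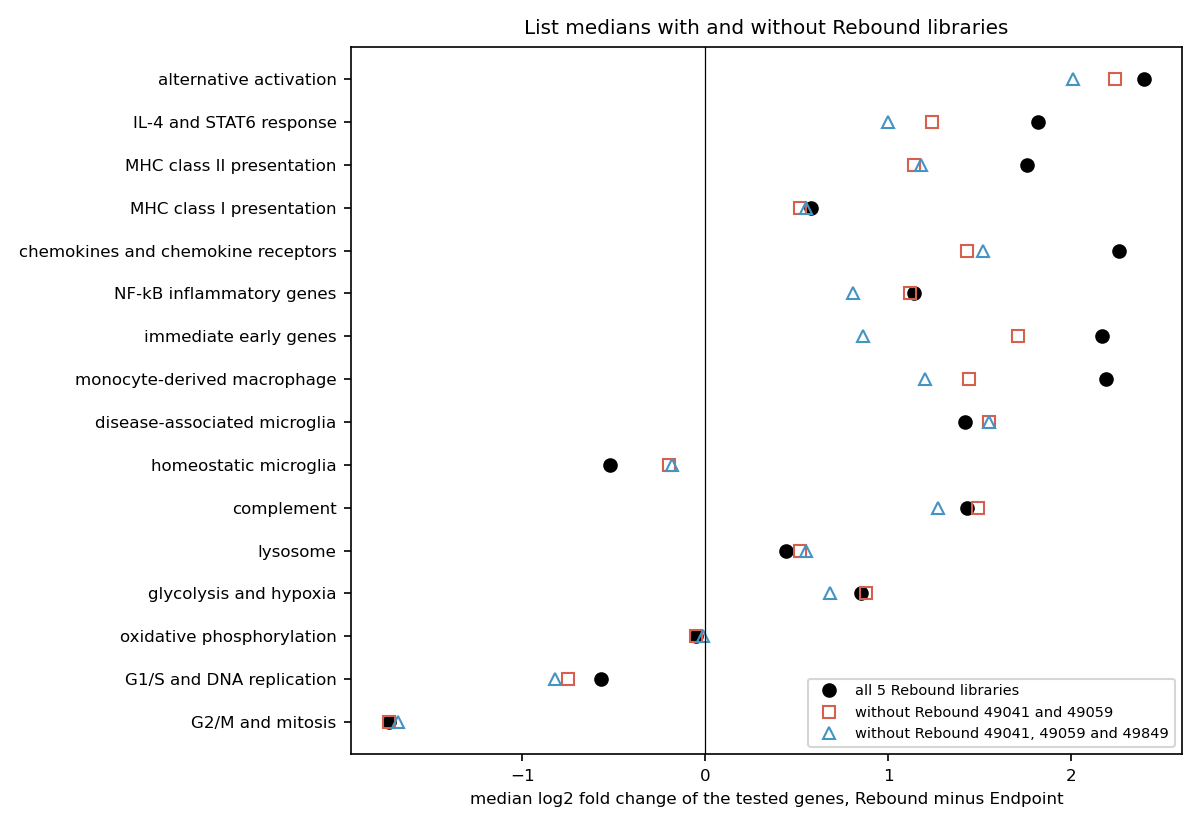
Median log2 fold change of 16 gene lists with all Rebound mice, without mice 49041 and 49059, and without mice 49041, 49059 and 49849, against all 6 Endpoint mice. The G2/M median is -1.73, -1.73 and -1.68, and the median of the disease-associated microglia list is 1.42, 1.55 and 1.55, while that of the immediate early genes is 2.17, 1.71 and 0.86.

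Inflammatory signalling genes were higher. Of 27 NF-kB inflammatory genes 19 were called higher and 1, Il18, lower (median 1.14), and of 30 chemokines and their receptors 19 were higher and 0 lower (median 2.26). Il1b, which encodes interleukin-1 beta, was at 53.6, 187, 58.4, 28.1 and 29.2 CPM in Rebound mice, against 1.26, 5.77 and 9.55 CPM in Endpoint mice (3.70 ± 0.51, SE, edgeR adjusted p = 0.000224). The groups did not overlap. Cxcl2, a neutrophil chemoattractant, was at 0.877, 36.7, 0.688, 1.03 and 6.55 CPM in Rebound mice and at most 0.108 CPM in Endpoint mice (8.32). That Endpoint level is below 3 counts, so the size of the Cxcl2 rise is uncertain. It ran from 5.97 to 10.4 over the fits with other scalings, tools, filters or 1 library less. Ccr1, a chemokine receptor, was at 12.2 to 491 CPM in Rebound mice and 2.27 to 11.5 CPM in Endpoint mice (4.69). Mouse 49059 was the highest in all 3 genes. Ccl2, the ligand of CCR2, was chosen after its values were seen: at 14.3, 581, 42.6, 70.5 and 73.7 CPM in Rebound mice, against 6.67, 9.13 and 15.2 CPM in Endpoint mice, it had a log2 fold change of 4.02, which was 2.39 without mouse 49059. Without mice 49041 and 49059 each of the 2 lists had 13 genes called higher.

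Immediate early genes, which are switched on within minutes of a stimulus, had 16 of 22 members called higher and 0 lower (median 2.17). Egr1, a zinc-finger factor, was at 81.7, 298, 73.0, 41.5 and 173 CPM in Rebound mice, against 4.92, 7.18 and 17.1 CPM in Endpoint mice (3.97 ± 0.51, SE, edgeR adjusted p = 0.000144). Of 17 ERK feedback genes 7 were called higher and 0 lower (median 1.53), or 4 with a median of 2.51 where a mean of at least 5 CPM was required. They included Dusp6, a phosphatase that dampens ERK, at 222, 710, 333, 226 and 339 CPM in Rebound mice, against 45.0, 64.0 and 86.0 CPM in Endpoint mice (2.53 ± 0.28, SE, edgeR adjusted p = 1.94e-05). Vehicle TAMs held 500 to 934 CPM of Dusp6.

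Of 17 complement genes 12 were called higher and 1 lower (median 1.43). C3, the central component, was at 1120, 973, 370, 224 and 448 CPM in Rebound mice, against 18.4, 30.4 and 64.3 CPM in Endpoint mice (4.20 ± 0.63, SE, edgeR adjusted p = 0.000541). C3ar1, the receptor of its fragment C3a, was at 933 to 1340 CPM in Rebound mice and 460 to 619 CPM in Endpoint mice (1.06). Itgam, which encodes the gate's own antigen CD11b, a chain of complement receptor CR3, was at 1150 to 1760 CPM in Rebound mice and 603 to 810 CPM in Endpoint mice (0.89 ± 0.18, SE, edgeR adjusted p = 0.00232).

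Of 24 efferocytosis and scavenger receptor genes, 14 were called higher and 1, Itgav, lower, with a median of 1.00. Abca1, a cholesterol exporter, was at 572, 285, 1020, 831 and 891 CPM in Rebound mice, against 123, 180 and 334 CPM in Endpoint mice, and overlapped only through mouse 49059 (1.74 ± 0.31, SE, edgeR adjusted p = 0.00112). Abcg1, a second exporter, had a log2 fold change of 1.94 and Soat1, which esterifies cholesterol for storage, one of 1.40. Of 34 lysosomal genes 10 were called higher and 0 lower (median 0.44), among them Lipa, the lysosomal acid lipase (1.38). limma-voom called 17 of them higher. Of 28 genes of cholesterol synthesis, uptake and export 7 were called higher and 1 lower. The shares of all genes tested were 11.7% higher and 5.90% lower.

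Of 35 glycolysis and hypoxia genes 13 were called higher and 1, Aldoc, which is also an astrocyte marker, lower (median 0.85). Hif1a, the oxygen-sensitive transcription factor, was at 231, 315, 334, 414 and 414 CPM in Rebound mice, against 75.3, 86.4 and 138 CPM in Endpoint mice (1.89 ± 0.23, SE, edgeR adjusted p = 4.66e-05). Slc2a1, the glucose transporter GLUT1 (1.45), Hk1, a hexokinase (1.61), and Pfkp, a phosphofructokinase (3.17), were higher without overlap. Of 40 oxidative phosphorylation subunits 1 was called, Ndufa6, lower (-0.53), with a median of -0.05 over the list. Of 38 cytosolic ribosomal protein genes 1 was called, Rpl37, lower (-0.61), with a median of -0.30, and 9 were called lower where only the 11 Rebound and Endpoint libraries were fitted. Both single calls were lost without any 1 of Rebound mice 49041, 49059 and 49834 or Endpoint mice 49825 and 49831.

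Of 29 matrix genes tested 22 were called higher and 3, Fbn2, Lamb2 and Sparcl1, lower, with a median of 4.0. The number higher was 9 where a mean of at least 5 CPM was required, and 13 where the counts of Rebound and Endpoint libraries were halved. Postn, which encodes periostin, was at 104, 47.9, 30.0, 44.7 and 30.6 CPM in Rebound mice, against 2.53, 5.90 and 8.49 CPM in Endpoint mice (3.20 ± 0.40, SE, edgeR adjusted p = 5.58e-05). Vehicle TAMs held 1.84 to 5.82 CPM, so Postn was higher in each Rebound library than in any other TAM library. Ecm1, an extracellular matrix protein, was at 123, 120, 6.74, 52.3 and 46.4 CPM in Rebound mice and at most 4.13 CPM in Endpoint mice (4.98). Pericyte and fibroblast markers summed to 156, 225, 26.1, 239 and 140 CPM in Rebound mice and 15.9 to 29.2 CPM in Endpoint mice. Of these 12 markers 10 were tested and 7 called higher (median 4.14). Endothelial markers summed to 57.8 to 132 CPM in Rebound mice and 9.90 to 22.6 CPM in Endpoint mice. Without the leading member Flt1 the endothelial sums were 74.6, 60.9, 18, 50.6 and 34.6 CPM in Rebound mice and 5.97 to 20.2 CPM in Endpoint mice, with mouse 49827 within the Endpoint range. Pericyte, fibroblast and endothelial cells may each add matrix transcripts. Their part in the matrix result was not tested.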

How the data were processed

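Per the labels' protocols, SMART-Seq libraries of TAM RNA, a chemistry without strand information, were read from both ends for 50 bases. The authors deposited 1 table of whole-number counts per gene symbol for 23337 genes, with no normalization. The submitters' processing notes name STAR 2.3.0e, SAMtools and the build mm10. How genes were counted, and with which annotation, is not given in the sources used here. All counts of the Rebound and Endpoint libraries are even, while Vehicle libraries hold odd counts too, so Vehicle levels come from files made differently. Replicates are different mice, and no 2 libraries agreed within sampling noise.

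Genes were kept by filterByExpr and tested with edgeR 4.0.16 in R 4.3.3 (TMM, estimateDisp, glmQLFit with robust=TRUE, glmQLFTest) on all 16 TAM libraries, which share 1 estimate of spread, with Benjamini-Hochberg adjustment. The standard error is the log2 fold change divided by the root of the F statistic. On simulated counts with this design, 44 of 100 genes changed 2-fold and 95 of 100 changed 4-fold were called, with 1 of 12899 unchanged genes. The changed genes had a mean of at least 5 CPM, so these rates do not carry over to lower genes. Each gene was drawn independently, without other cell types that vary between mice, so the rates need not hold for the real libraries. A total of 15.4 to 19.6 M counts per Rebound library and 9.54 to 15.8 M per Endpoint library limits what can be called among low genes. Coordinates are mm10, and promoter sequences are from RefSeq. Figures used matplotlib 3.10.9.

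The members, the 40 gene lists and the 13 marker lists were chosen with earlier results of these data known, so lists are described by counts and medians without a set test. Named genes are Igf1, Csf1r and Il4ra, then the 12 largest rises and 12 largest falls among called genes without overlap between the groups, with a mean of at least 20 CPM in the higher group, at least as high in TAM as in PDGFRA+ libraries of that stage and in no marker list of other cells, then up to 4 called members per list by adjusted p and up to 3 per marker list by level. Other genes are named as chosen after their values were seen. Alternatives were RLE and upper-quartile scaling, DESeq2 1.42.0, limma-voom (limma 3.58.1), 2 other filters, other sets of libraries or genes, halved counts and leaving out each library. The eosinophil, basophil and mast cell, and type 2 cytokine lists, the marker sums without 1 leading gene, and the fits without 2 or 3 Rebound mice, were added after seeing the data. Some results are not reported here.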

Additional observations from a re-analysis of the deposited data

Results flagged for a closer look

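Single libraries that stood far from the rest of their group were looked for by setting the gap to the nearest library against the group's range, in 98 groups of 5 or 6 libraries. Chance gives a gap above 0.71 of the range (5 libraries) or 0.625 (6 libraries) in about 1 of 20 groups of normally distributed values. CPM values are skewed and the groups share the same mice, so that rate does not hold here. Gaps above these values were taken, and 9 groups had one.

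Rebound mouse 49059 accounted for 4 of them. Its Csf1r level of 2910 CPM lay below the next lowest Rebound library at 4730 CPM, its Cyp26a1 level of 87.4 CPM above the next highest at 24.8 CPM, its Ccl7 level of 131 CPM above 12.5 CPM and its G0s2 level of 100 CPM above 23 CPM. Rebound mouse 49827 was highest for Abcb4 at 7.98 CPM (next 3.40 CPM) and for Ube2c, a ubiquitin-conjugating enzyme of mitosis, at 18.2 CPM (next 6.96 CPM).

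Endpoint mouse 49843 had an Igf1 level of 102 CPM, with the next library at 12 CPM. It was also the only Endpoint library with any Cyp26a1, at 0.157 CPM, which is below the 0.236 CPM that 3 counts stand for in that library. Endpoint mouse 49830 was highest for H2-M2, a class I-like gene, at 0.71 CPM (next 0.216 CPM), which is a level of few counts.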

How the results depend on the processing

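The number of genes called was 2337 and lay between 1624 (without Rebound mouse 49059) and 2556 when any 1 library was left out, with 1138 to 1610 higher and 486 to 946 lower. The other planned settings gave 1877 to 3308 calls. limma-voom with quality weights called 1328 genes lower, against 785 with edgeR. Without Rebound mice 49041 and 49059, 1345 genes were called (964 higher and 381 lower), and without mice 49041, 49059 and 49849, 592 (483 higher and 109 lower), of which 556 had been called with all mice. Both fits hold fewer samples and were chosen after seeing the data. Over 170 genes and 21 planned settings, 3415 of 3551 results kept their direction and side of the threshold, 134 were no longer called, 2 became called and 0 changed direction. Most of these genes were picked from the same data for a small adjusted p or a large fold change, so this stability was partly fixed beforehand. Without mice 49041 and 49059, 27 of these genes were no longer called, and 66 without mouse 49849 as well. No paired analysis was possible because the groups compared share no mouse. Depth limits the low genes: 3 counts stand for 0.165 to 0.206 CPM in Rebound and 0.162 to 0.281 CPM in Endpoint libraries.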

Other observations

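Further gene groups differed between Rebound and Endpoint TAMs. Of 21 annexins, S100 proteins and galectins 12 were called higher and 0 lower (median log2 fold change 1.41). Anxa5, a phosphatidylserine-binding protein, was at 328, 398, 345, 398 and 447 CPM in Rebound mice, against 104, 149 and 218 CPM in Endpoint mice (1.35 ± 0.18, SE, edgeR adjusted p = 0.000126), and the groups did not overlap. Of 18 matrix metalloproteinases and related genes 9 were higher and 0 lower. They included Plaur, the urokinase receptor, at 149, 362, 98.5, 165 and 177 CPM in Rebound mice, against 13.2, 22.9 and 44.0 CPM in Endpoint mice (2.92 ± 0.30, SE, edgeR adjusted p = 1.25e-05). Of 30 macrophage transcription factors 16 were higher and 2 lower, with a median of 1.24. Of 24 lipid droplet and fatty acid genes 7 were higher (12 with limma-voom) and 0 lower, among them Plin2, the droplet coat protein (2.16), and Cpt1a, which brings fatty acids into mitochondria (1.38).

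In other groups genes were called in both directions, against 11.7% of all genes called higher and 5.90% lower. Of 27 PI3K, AKT and mTOR components 3 were higher and 2 lower, with a median of 0.05, and the number higher was 1 without any 1 of Rebound mice 49041, 49059 and 49849 or Endpoint mice 49825 and 49845. Akt1 was lower in Rebound mice (-0.65) and Pik3ap1, a PI3K adaptor of leukocytes, higher (0.96). Of 25 FOXO-induced genes 5 were higher and 5 lower (3 and 3 without Rebound mouse 49059, mouse 49849 or Endpoint mouse 49823), with Il7r, the IL-7 receptor chain, at 5.67 to 23.7 CPM in Rebound mice and 54.4 to 131 CPM in Endpoint mice (-2.60). Hmox1, the heme oxygenase gene, was at 102, 163, 108, 365 and 201 CPM in Rebound mice, against 35.2, 39.3 and 94.3 CPM in Endpoint mice (1.93), and at 1150 to 4870 CPM in Vehicle mice, above all of both.

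Hpgd, which breaks down prostaglandins and was chosen after its values were seen, was at 81.6, 41.3, 161, 198 and 116 CPM in Rebound mice, against 306, 388 and 528 CPM in Endpoint mice (-1.74 ± 0.32, SE, edgeR adjusted p = 0.00132). The groups did not overlap. The labels give no sex, and Xist was at 0.138 CPM in Rebound mouse 49827 and 294 to 429 CPM in the other 4. It was at 1.42, 0.126 and 0.433 CPM in Endpoint mice 49823, 49825 and 49845, and at 867, 613 and 534 CPM in Endpoint mice 49830, 49831 and 49843. Ddx3y, a gene of the Y chromosome, was at 97.9 CPM in Rebound mouse 49827. In Endpoint mice 49823, 49825 and 49845 it was at 64.4, 59.9 and 58 CPM, and in the remaining mice of both stages at most 1.8 CPM. By these genes the mix of sexes differed between the stages, and its part in the results was not tested.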
